A study of Mus musculus with 12 samples.

Results

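The lens crystallins described here are 10 genes, taken by name from the 23420 genes that each of 2 count tables lists. They comprise 2 alpha crystallins (*Cryaa*, *Cryab*), 6 beta crystallins (*Cryba1*, *Cryba2*, *Cryba4*, *Crybb1*, *Crybb2*, *Crybb3*) and 2 gamma-type crystallins (*Crygs*, *Crygn*). The study sequenced polyA RNA from 12 homogenized whole mouse embryos at embryonic day 12.5, 1 library per embryo, to compare the transcriptional effect of losing *Carm1* with that of losing *Pax3*. The *Carm1* line held 3 wild-type and 3 *Carm1* null embryos from intercrosses of heterozygous Carm1tm1Mtb mice, an allele that lacks exons 2 and 3 in every cell, with the strain given as C57BL/6. The *Pax3* line held 3 wild-type and 3 *Pax3* null embryos from intercrosses of heterozygous Pax3Sp2h (splotch) mice, also a germline allele, with the strain given as mixed; these mice came from a closed colony. The 2 lines were bred on different backgrounds, so line and strain cannot be told apart, and each null group is compared here with the wild types of its own line.

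Crystallins are the main soluble proteins of the lens, where their dense packing gives transparency and refractive power. The alpha crystallins are members of the small heat shock protein family and act as chaperones, whereas the beta and gamma crystallins form a separate family of compact structural proteins. *Cryaa* is largely restricted to the lens, whereas *Cryab* is also made in heart and skeletal muscle. In the mouse embryo crystallin genes switch on as the lens vesicle forms and its posterior cells elongate into primary fibre cells, under transcription factors that include PAX6, MAF, PROX1, SOX1, SOX2 and HSF4. CARM1 is an arginine methyltransferase that acts on histone H3 and on splicing and transcription factors, and PAX3 is a paired-box transcription factor of the neural tube, neural crest and muscle precursors.

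In the GRCm38 assembly (mm10, the build of the files), 4 of the beta crystallins lie on chromosome 5. *Cryba4* (chr5:112246493-112252518, minus strand) and *Crybb1* (chr5:112255815-112269585, plus strand) are transcribed away from each other with 3296 bases between them. *Crybb2* (chr5:113058258-113070117) and *Crybb3* (chr5:113075839-113081584), both on the minus strand, are 5721 bases apart. *Crygn* (chr5:24751003-24758008, minus strand) lies elsewhere on the chromosome. *Cryaa* is at chr17:31677807-31681733 (plus strand), *Cryba1* at chr11:77718615-77725283 (minus strand) and *Crygs* at chr16:22805203-22811577 (minus strand). *Cryab* (chr9:50751325-50756636, plus strand) is on the chromosome that carries *Carm1*, 29.16 Mb away, and *Cryba2* (chr1:74889934-74893143, minus strand) is 3.21 Mb from *Pax3*. All 10 genes are protein-coding. The upstream regions of 3 members are printed because *Crybb1*, *Cryba4* and *Crybb3* were the members whose response differed between the lines. Each line gives the 250 bases before the start site, from RefSeq on GRCm38.p6, 5′ to 3′ on the strand of the gene, with capitals marking the hexamer TGCTGA or its reverse complement TCAGCA, the core of the site bound by MAF-family factors.
Crybb1: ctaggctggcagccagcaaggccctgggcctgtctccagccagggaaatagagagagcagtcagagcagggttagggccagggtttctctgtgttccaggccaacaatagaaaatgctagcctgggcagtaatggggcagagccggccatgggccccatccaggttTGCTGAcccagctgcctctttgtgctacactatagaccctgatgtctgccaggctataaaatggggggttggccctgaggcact
Cryba4: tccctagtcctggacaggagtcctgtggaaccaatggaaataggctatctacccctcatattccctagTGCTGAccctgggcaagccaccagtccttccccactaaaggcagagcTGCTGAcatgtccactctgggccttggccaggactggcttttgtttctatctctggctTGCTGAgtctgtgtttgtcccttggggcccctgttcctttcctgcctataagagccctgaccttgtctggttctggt
Crybb3: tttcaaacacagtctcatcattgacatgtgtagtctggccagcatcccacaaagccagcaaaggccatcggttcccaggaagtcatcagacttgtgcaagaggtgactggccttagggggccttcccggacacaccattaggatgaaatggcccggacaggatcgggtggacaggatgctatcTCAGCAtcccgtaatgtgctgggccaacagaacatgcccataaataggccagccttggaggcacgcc
These windows are chr5:112255570-112255819 for *Crybb1*, chr5:112252519-112252768 for *Cryba4* and chr5:113081585-113081834 for *Crybb3*. A RefSeq promoter was at hand for 9 of the 10 members, all but *Cryab*. RefSeq and GENCODE place some starts apart, so the windows of *Cryaa*, *Crygn* and *Crygs* run 124, 160 and 167 bases into the GENCODE gene span given above, and that of *Crybb1* 5 bases. The MAF hexamer, searched on both strands, was found in 8 of those 9 windows, *Crybb2* being the exception, and in 16.1% of 32851 mouse promoter windows of the same length. *Cryba4* held 3 copies, 182, 135 and 77 bases before its start, and *Crybb1* held 1, 84 bases before. The letters TATAAA, searched on the coding strand, were found in 3 of the 9 windows (*Cryba1*, *Crybb1*, *Crygs*) and in 7.59% of all windows, and overlapped no MAF hexamer. These matches describe sequence and not occupancy.

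The libraries held 17183344 to 23518692 counts on genes. *Carm1* itself had 2542, 3384 and 2808 counts in wild type and 1299, 1237 and 1293 in *Carm1* null embryos, so RNA of the deleted allele was still counted (log2 fold change -0.998, SE 0.050). *Pax3* was lower by 0.43 ± 0.09 (log2) in *Pax3* null embryos, whose allele also leaves a transcript. Counts from Y-linked genes marked 4 male embryos (*Carm1* wild-type replicate 3, *Pax3* wild-type replicates 2 and 3, and *Pax3* null replicate 3), so all 3 *Carm1* null embryos were female. Lens-defining markers were present at low levels: *Mip*, the major lens fibre water channel, ranged from 0.933 to 5.68 CPM (counts scaled to library size with TMM factors) and *Bfsp1*, a beaded filament protein, from 1.85 to 2.63 CPM, whereas *Foxe3*, a factor of the anterior lens epithelium, reached at most 0.601 CPM and the late fibre gene *Lgsn* at most 0.0579 CPM. In such RNA, fewer lens cells and less crystallin RNA per lens cell cannot be told apart. 1 library stood apart for crystallins: *Carm1* null replicate 1, in which the crystallins other than *Cryab* summed to 15.03 CPM. The *Carm1* values below are followed by those without it.

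Per kilobase of transcript, *Cryaa* had the highest mean of the crystallins in all 4 groups, though in *Carm1* null replicate 1 it lay below *Cryab*, at 4.42 against 9.19 CPM per kb. In *Carm1* wild-type embryos its level was 14.3 ± 0.78 CPM per kb (mean ± SD, n = 3 here and below), followed by *Cryab* at 10.5 ± 0.65. *Cryba1* (8.28 ± 0.35), *Crybb3* (7.94 ± 1.35) and *Crybb1* (7.14 ± 1.31) came next, and the ranges of these 3 overlapped. *Cryba4* (2.53 ± 0.25), *Cryba2* (2.14 ± 0.37) and *Crygn* (1.67 ± 0.42) were lower, and each overlapped its neighbour in that order. In *Pax3* wild-type embryos *Cryaa* stood at 20.4 ± 2.48, followed by *Cryba1* (10.2 ± 2.14), *Cryab* (7.88 ± 0.87), *Crybb3* (6.80 ± 0.66) and *Crybb1* (6.24 ± 0.47), with overlap between each pair of neighbours after *Cryaa*, and then *Cryba4* (1.29 ± 0.20), *Crygn* (1.19 ± 0.27) and *Cryba2* (1.16 ± 0.29), which overlapped one another. The tables were scaled separately, so levels are not compared between lines. *Crybb2*, a major beta crystallin of the mature lens, had 0 counts in all 12 libraries, where 3 counts would be 0.128 to 0.175 CPM. *Crygs*, a late fibre-cell crystallin, had 0 to 5 counts per library. These 2 genes did not pass the filter on low counts, leaving 8 of the 10 members with a test in each line.

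**Figure D1:**
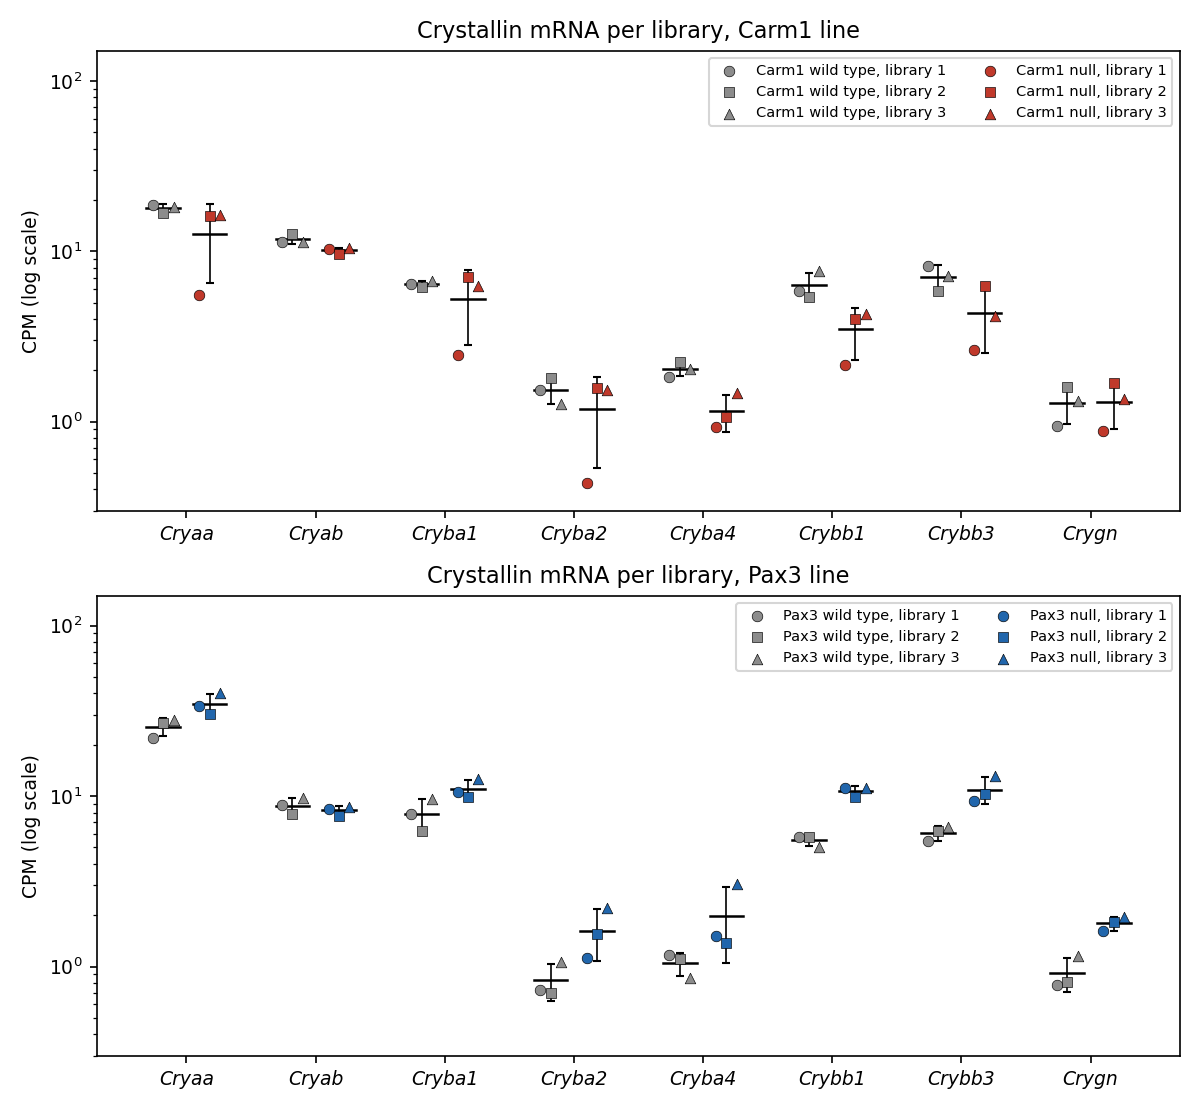
CPM (log scale) of the 8 tested crystallins in each library of the *Carm1* line (top) and the *Pax3* line (bottom). Symbols are libraries 1 to 3, the horizontal bar is the group mean and the error bar the SD (n = 3); *Carm1* null library 1 is the lowest point for *Cryaa* at 5.54 CPM, whereas in the *Pax3* line the null points of *Crybb1* (9.83 to 11.2) lie above those of wild type (5.03 to 5.76).

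Loss of *Carm1* was accompanied by lower *Crybb1*. *Cryba4* was also called lower, at the edge of the threshold and not under most alternatives, and no crystallin was called higher. Of the 8 tested members, 2 fell and 0 rose at an adjusted p below 0.05 (edgeR quasi-likelihood test, Benjamini-Hochberg over 15811 genes), where 7.83% of all tested genes fell and 5.49% rose. The median log2 fold change of the 8 was -0.45, against 0.0014 over all tested genes. Without *Carm1* null replicate 1 the median was -0.18, 3 of the 8 values were above 0, and 1 member, *Crybb1*, was called. The groups did not overlap for 4 members, all lower in *Carm1* null embryos, a pattern that 15.7% of tested genes showed downward and 14.2% upward.

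*Crybb1*, a basic beta crystallin of fibre cells, measured 5.87, 5.42 and 7.61 CPM in wild type and 2.14, 3.98 and 4.30 CPM in *Carm1* null embryos. Every null embryo lay below every wild-type embryo. The log2 fold change was -0.86 ± 0.20 (SE; 55.0% of wild type; edgeR adjusted p = 0.00363). Without *Carm1* null replicate 1 it was -0.60 and still past the threshold (edgeR adjusted p = 0.0443). The 2 female wild-type embryos, replicates 1 and 2, had 5.87 and 5.42 CPM, also above all 3 female null embryos. With a term for Y-linked expression the log2 fold change was -0.70. In this line that term marks wild-type replicate 3 alone, and leaving that library out gave the same value.

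*Cryba4*, its acidic neighbour on chromosome 5, measured 1.84, 2.24 and 2.05 CPM in wild type and 0.933, 1.06 and 1.47 CPM in null embryos, again without overlap. The log2 fold change was -0.83 ± 0.29 with an edgeR adjusted p of 0.0498, at the edge of the threshold. The call was lost without *Carm1* null replicate 1 (log2 fold change -0.69, edgeR adjusted p = 0.204) and with DESeq2 (adjusted p = 0.154), and also without null replicate 2 or any 1 of the 3 wild-type libraries. *Crybb3*, a basic beta crystallin, measured 8.24, 5.85 and 7.17 CPM in wild type and 2.63, 6.22 and 4.18 CPM in null embryos. Its groups overlapped, since null replicate 2 exceeded wild-type replicate 2. The log2 fold change of -0.69 ± 0.24 did not pass the test (edgeR adjusted p = 0.0741). Without null replicate 1 it was -0.43 (edgeR adjusted p = 0.173). It passed without null replicate 2 (-1.05) or wild-type replicate 2 (-0.82), with DESeq2 (adjusted p = 0.0465) and with no filter on low counts (edgeR adjusted p = 0.000396).

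*Cryaa* showed how far a single embryo set the group value. It measured 18.6, 16.8 and 18.2 CPM in wild type and 5.54, 16.2 and 16.3 CPM in null embryos. Null replicates 2 and 3 lay just under the lowest wild type, and replicate 1 lay far under both. The coefficient of variation was 5.47% in wild type, close to the 5.27% that counting alone gives, and 48.7% in null embryos, where counting gives 6.71%. The log2 fold change was -0.50 ± 0.42 (edgeR adjusted p = 0.552) and fell to -0.14 without replicate 1. *Cryba1*, an acidic beta crystallin, repeated this with 6.40, 6.19 and 6.73 CPM in wild type and 2.47, 7.06 and 6.25 CPM in null embryos. *Cryba2*, another acidic beta crystallin, gave 1.54, 1.81 and 1.27 against 0.439, 1.57 and 1.53 CPM. Without replicate 1 both changed sign, to log2 fold changes of 0.049 and 0.0056.

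*Cryab* and *Crygn* were not set apart in *Carm1* null replicate 1. *Cryab* measured 11.3, 12.6 and 11.3 CPM in wild type and 10.3, 9.69 and 10.4 CPM in null embryos. The null values were all below those of wild type, by a margin that did not pass the test (log2 fold change -0.22 ± 0.11, edgeR adjusted p = 0.199; -0.23 without replicate 1). *Cryab* shares 252 exonic bases with its neighbour *Hspb2*, a muscle small heat shock protein, so reads from the overlap may not be assigned to 1 gene. *Crygn*, a gamma-related crystallin also found outside the lens, measured 0.949, 1.59 and 1.32 CPM in wild type and 0.878, 1.68 and 1.36 CPM in null embryos, replicate 1 being the lowest of both groups. Its log2 fold change was -0.0057, with a 95% interval from -0.65 to 0.64, and 0.22 without replicate 1.

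Loss of *Pax3* was accompanied by higher crystallins. Of the 8 tested members, 7 rose and 0 fell (edgeR quasi-likelihood test, Benjamini-Hochberg over 15724 genes), where 14.0% of all tested genes rose and 10.5% fell. The median log2 fold change of the 8 was 0.90, against -0.0026 over all tested genes. For the same 7 genes every null embryo exceeded every wild-type embryo, which 20.7% of tested genes showed upward and 18.9% downward. *Cryab* was the member that did not rise.

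*Crybb1* again had the smallest adjusted p. It measured 5.76, 5.73 and 5.03 CPM in wild type and 11.2, 9.83 and 11.2 CPM in *Pax3* null embryos, a log2 fold change of 0.97 ± 0.12 (196% of wild type; edgeR adjusted p = 2.05e-06). The same held within each sex: the female wild type had 5.76 CPM and the female nulls 11.2 and 9.83, and the male wild types had 5.73 and 5.03 CPM and the male null 11.2. *Crybb3* measured 5.42, 6.20 and 6.57 CPM in wild type and 9.39, 10.3 and 13.1 CPM in null embryos, a log2 fold change of 0.85 ± 0.13 (edgeR adjusted p = 3.84e-05). For *Crybb1* the gap between the groups exceeded the range within either group. For *Crybb3* the gap, from 6.57 to 9.39 CPM, was narrower than the range of the null embryos.

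*Cryaa* rose less in proportion, from 22.0, 26.9 and 27.8 CPM in wild type to 33.9, 30.5 and 40.1 CPM in null embryos (log2 fold change 0.45 ± 0.10, edgeR adjusted p = 0.00225). *Cryba1* was similar, with 7.86, 6.25 and 9.58 CPM in wild type and 10.5, 9.88 and 12.6 CPM in null embryos (0.46 ± 0.14, adjusted p = 0.0142). Its highest wild-type and lowest null embryos were close, at 9.58 and 9.88 CPM.

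The 3 low-level members rose by larger factors than *Cryaa* and *Cryba1*, with larger standard errors. *Cryba4* measured 1.17, 1.1 and 0.859 CPM in wild type and 1.52, 1.37 and 3.05 CPM in null embryos (log2 fold change 0.94 ± 0.31, edgeR adjusted p = 0.029). *Pax3* null replicate 3 was the highest library for this gene. *Cryba2* measured 0.732, 0.695 and 1.07 CPM in wild type and 1.12, 1.55 and 2.21 CPM in null embryos (0.94 ± 0.32, adjusted p = 0.032). *Cryba2* lies close to *Pax3* on chromosome 1, where 23 of the 71 tested genes within 5 Mb were called, against 3851 of 15724 genes overall. *Crygn* measured 0.781, 0.811 and 1.16 CPM in wild type and 1.61, 1.82 and 1.95 CPM in null embryos (0.95 ± 0.29, adjusted p = 0.0162). *Cryab* measured 8.83, 7.82 and 9.75 CPM in wild type and 8.45, 7.65 and 8.61 CPM in null embryos, with overlapping groups and a log2 fold change of -0.10 (95% interval -0.35 to 0.15).

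2 limits bear on this count. Crystallin mRNAs are short, and most are rich in G and C: the members' principal transcripts span 720 to 1254 nt with 47.2 to 61.8% GC. The 8 tested had medians of 845 nt and 58.4% against 2976 nt and 50.6% over all tested genes of the *Pax3* line. *Cryba1* (47.2%) and the untested *Crygs* (50.1%) lay below that GC median. In that line short transcripts as a class were higher in null embryos: of the 1360 other tested genes no longer than the longest member and at least as GC-rich as the lowest, 43.2% rose and 1.32% fell, with a median log2 fold change of 0.29, whereas 10.8% of the 13905 longer genes rose. The same class did not stand apart in the *Carm1* line, where 4.64% of 1379 such genes rose, 5.95% fell and the median was 0.012. With no lower limit on GC, 39.3% of 1702 short genes rose and 1.7% fell in the *Pax3* line, with a median of 0.27. With offsets for length and GC content fitted to each library, 2 members remained called in the *Pax3* line, *Crybb1* (log2 fold change 0.55, edgeR adjusted p = 0.00328) and *Crybb3* (0.44, adjusted p = 0.0204). *Cryaa* was then at 0.19 and *Cryba1* at 0.25, and *Cryba2*, *Cryba4* and *Crygn* lay between 0.53 and 0.55 without a call. Leaving out *Pax3* wild-type replicate 1, wild-type replicate 2 or null replicate 3 also cut the count, to 3, 4 and 3, and *Cryaa*, *Crybb1* and *Crybb3* were called each time.

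**Figure D2:**
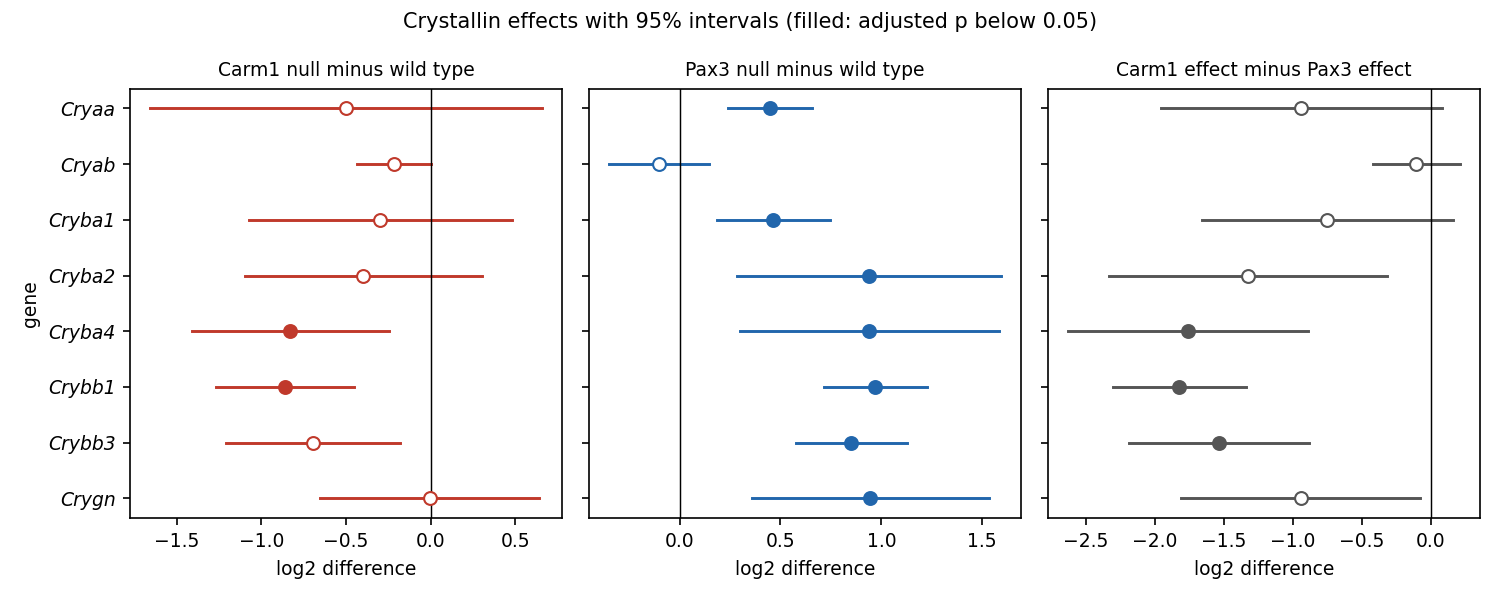
Log2 fold change of each tested crystallin in the *Carm1* line (left) and the *Pax3* line (middle), and the difference between the 2 effects (right), with 95% intervals. Filled points have an adjusted p below 0.05; *Crybb1* is filled in all 3 panels, at -0.86, 0.97 and -1.82.

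The effects of the 2 alleles were compared in 1 fit over all 12 libraries, in which each effect was taken within its own line. The *Carm1* effect was below the *Pax3* effect for all 8 tested members, and 3 of the 8 passed the test (edgeR quasi-likelihood test over 16292 genes, of which 10.5% had a lower and 8.65% a higher *Carm1* effect). For *Crybb1* the difference was -1.82 ± 0.24 on the log2 scale (95% interval -2.31 to -1.34, adjusted p = 2.58e-06). *Cryba4* differed by -1.76 ± 0.43 (edgeR adjusted p = 0.00362) and *Crybb3* by -1.54 ± 0.31 (adjusted p = 0.0023). These 3 genes remained called under every alternative that was run, including each library left out in turn and the length and GC offsets, where *Crybb1* differed by -1.44, *Cryba4* by -1.39 and *Crybb3* by -1.15. *Cryba2* had a difference of -1.33 (adjusted p = 0.0574) and *Crygn* of -0.94 (adjusted p = 0.122). *Cryaa* had a difference of -0.94 with a wide interval, -1.96 to 0.082, which narrowed once *Carm1* null replicate 1 was left out: the difference was then -0.57 with an edgeR adjusted p of 0.0093. For *Cryab* the interval ran from -0.42 to 0.21.

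The summed level of the crystallins other than *Cryab* shows both lines at a glance. It was 43.47, 39.94 and 44.36 CPM in *Carm1* wild type and 15.03, 37.75 and 35.53 CPM in *Carm1* null embryos, and 43.77, 47.78 and 52.24 CPM in *Pax3* wild type and 69.29, 65.42 and 84.42 CPM in *Pax3* null embryos. No null sum overlapped those of its wild types. The makeup of the sum moved less than its size: *Cryaa* supplied 42.0% ± 0.87 of it in *Carm1* wild type, 41.8% ± 4.55 in *Carm1* null, 53.3% ± 3.04 in *Pax3* wild type and 47.7% ± 1.15 in *Pax3* null embryos. The share of *Crybb1* was 14.7% ± 2.08 and 12.3% ± 1.86 in the *Carm1* line and 11.6% ± 1.80 and 14.8% ± 1.47 in the *Pax3* line, each in the order wild type, null.

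**Figure D3:**
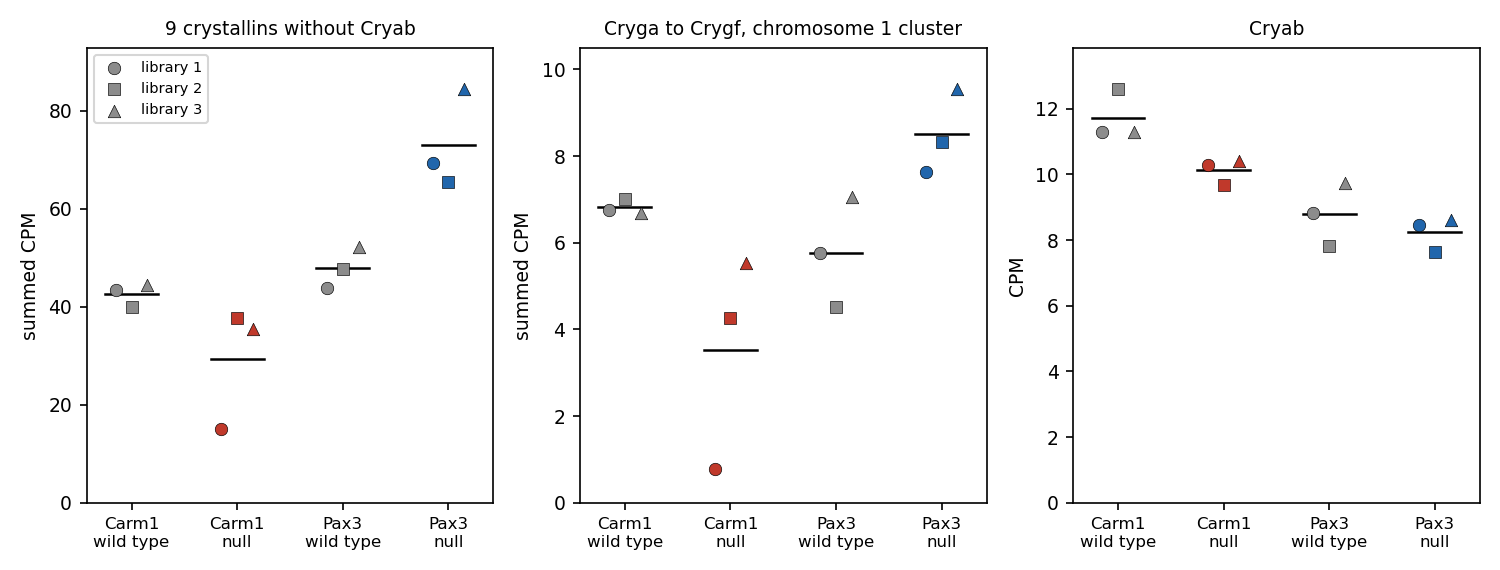
Summed CPM of the crystallins other than *Cryab* (left), summed CPM of the chromosome 1 gamma crystallins *Cryga* to *Crygf* (middle) and CPM of *Cryab* (right) in each library, with group means as bars; the 2 lines were scaled separately. *Carm1* null library 1 is lowest in the first 2 panels, at 15.03 and 0.768 CPM, and lies with its group for *Cryab* at 10.3 CPM.

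The 6 gamma crystallins clustered on chromosome 1, which are fibre-cell proteins and no members of the set above, offered a separate reading of the lens. Their summed level was 6.76, 7.007 and 6.679 CPM in *Carm1* wild type, 0.7682, 4.257 and 5.539 CPM in *Carm1* null, 5.758, 4.517 and 7.045 CPM in *Pax3* wild type and 7.644, 8.331 and 9.546 CPM in *Pax3* null embryos. *Carm1* null replicate 1 was again the lowest library. Of the cluster, 3 genes were tested in each line, and 1 was called in each. *Crygd* was lower in the *Carm1* line (log2 fold change -1.40, edgeR adjusted p = 0.0383), but not called without null replicate 1. Its mean was 0.951 CPM in wild type and 0.363 CPM in null embryos. The lowest null value was 0.110 CPM, where 3 counts would be 0.167 to 0.174 CPM. *Cryge* was higher in the *Pax3* line (log2 fold change 1.59, edgeR adjusted p = 0.000322). Over all tested genes, 7.83% fell in the *Carm1* line and 14.0% rose in the *Pax3* line. *Cryge* measured 0.537, 0.579 and 0.859 CPM in *Pax3* wild type and 1.70, 2.14 and 2.25 CPM in null embryos. The genes of this cluster are closely similar copies, so how their reads were divided among them is uncertain. Their transcripts span 613 to 783 nt, within the class of short transcripts with at least the lowest member's GC, of which 43.2% rose in the *Pax3* line. The cluster also lies within 15 Mb of *Pax3*, where 54 of 191 tested genes were called, against 3851 of 15724 overall. The part of either in the *Cryge* values was not tested.

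In *Carm1* null embryos 4 of the 15 tested lens transcription factors rose, *Sox2*, *Sox1*, *Pax6* and *Meis2*, and 1 fell, *Mafg*, where 5.49% of all tested genes rose and 7.83% fell. Their median log2 fold change was -0.011. *Sox1*, *Sox2* and *Pax6* are also expressed throughout the neural tube. *Maf*, whose product binds the hexamer printed above, measured 47.2, 47.8 and 47.6 CPM in wild type and 48.4, 46.3 and 46.9 CPM in null embryos. In *Pax3* null embryos 2 of 16 rose (*Sox1*, *Sox2*) and 3 fell (*Tfap2a*, *Meis2*, *Pitx3*), with a median of 0.030, where 14.0% of all tested genes rose and 10.5% fell. *Pitx3*, a factor of the lens and midbrain among other tissues, fell from 5.46, 6.08 and 5.63 CPM to 4.07, 2.91 and 4.12 CPM (log2 fold change -0.62, edgeR adjusted p = 0.00615). Which tissue of the whole embryo carried this fall was not tested. *Maf* measured 35.7, 37.4 and 40.4 CPM in *Pax3* wild type and 39.6, 38.8 and 43.1 CPM in null embryos, with no call. Among lens fibre structure and membrane genes, 2 of 12 rose in the *Carm1* line (*Vim*, *Tdrd7*) and none fell, and 0 rose and 2 fell in the *Pax3* line (*Cdh2*, *Vim*); *Vim* and *Cdh2* are expressed in many embryonic tissues. *Mip*, the most lens-restricted of these, measured 3.32, 4 and 2.88 against 0.933, 2.97 and 4.42 CPM in the *Carm1* line and 3.95, 3.71 and 4.25 against 5.23, 3.37 and 5.68 CPM in the *Pax3* line. It shared the low value of *Carm1* null replicate 1 and passed the test in neither line.

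Genes that share a family or a tissue with *Cryab* are given beside it. Of 6 tested small heat shock proteins, 3 fell in *Carm1* null embryos (*Hspb2*, *Hspb8*, *Hspb3*) and none was called in *Pax3* null embryos. *Hspb2*, which overlaps *Cryab*, fell from 6.94, 5.89 and 6.00 CPM to 3.46, 3.81 and 4.24 CPM (log2 fold change -0.70, edgeR adjusted p = 0.00255). Of 16 cardiac muscle genes 10 fell in *Carm1* null embryos and 0 rose, and of 16 skeletal muscle genes 10 fell and 0 rose, where 7.83% of all tested genes fell. In *Pax3* null embryos 8 cardiac genes rose and 2 fell, and 0 skeletal genes rose and 13 fell, against 14.0% and 10.5% over all tested genes. Short transcripts as a class were higher in that line, and these muscle counts take no account of transcript length. Without *Carm1* null replicate 1, the *Carm1* line had 3 rises and 0 falls among lens transcription factors, no call among lens fibre genes or the gamma cluster, 1 fall among small heat shock proteins, and 8 and 10 falls among cardiac and skeletal genes, where 4.71% of all tested genes fell and 2.93% rose. The part of these tissues in the *Cryab* values was not tested.

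**Figure D4:**
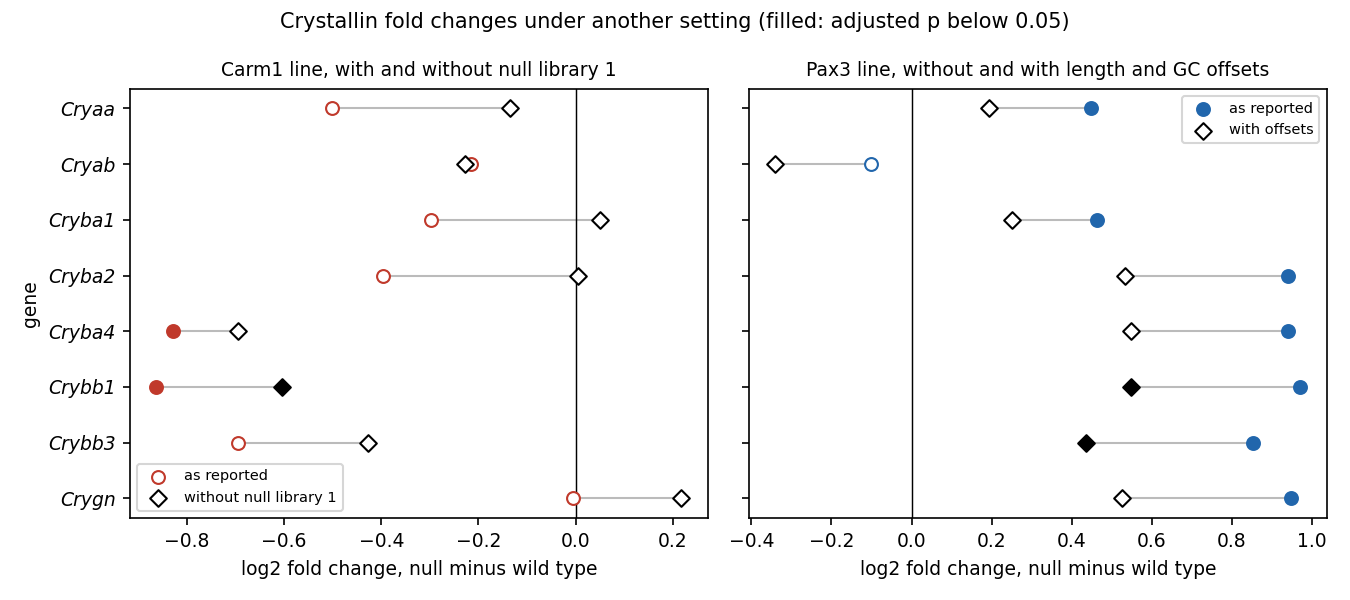
Log2 fold change of each tested crystallin in the *Carm1* line with all libraries (circles) and without null library 1 (diamonds), and in the *Pax3* line without (circles) and with (diamonds) offsets for transcript length and GC content. Filled symbols have an adjusted p below 0.05: *Crybb1* is filled throughout, moving from -0.86 to -0.60 in the left panel and from 0.97 to 0.55 in the right.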

How the data were processed

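PolyA RNA from 12 whole embryos was sequenced as paired 150 bp reads; the authors aligned reads to mm10 with STAR and deposited raw counts per gene, assigned by featureCounts on exons (versions, annotation, strand and multi-mapping settings are not given in the sources used here). RNA was selected for high integrity before sequencing. The members and gene lists were chosen with earlier results of these data known. Genes were tested with edgeR 4.0.16 in R 4.3.3 (robust quasi-likelihood F test, two-sided, TMM scaling, filterByExpr, Benjamini-Hochberg over all genes tested, threshold 0.05), per line and, for the difference between effects, over 12 libraries. The study itself used DESeq2, which was run as an alternative, as were other scalings and filters, a replicate block, a Y-linked term, length and GC offsets, and each library left out. CPM were TMM-scaled within a line; levels per kb used the principal GENCODE transcript, with 21785 symbols matched as written, 1296 by older symbol and 339 unmatched. Replicates carry separate embryo labels. The fit was tested on simulated data. Besides all members, *Carm1* and *Pax3*, each list's called genes were named, at most 4 per direction, and the 5 genes most like the crystallins. Limits from counts of 0 cover counting error alone.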

Additional observations from a re-analysis of the deposited data

Results flagged for a closer look

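The effect of the *Carm1* null allele differed from that of the *Pax3* null allele for 3 crystallins by the test of the difference itself (edgeR quasi-likelihood test over 12 libraries). The log2 difference was -1.82 for *Crybb1*, -1.76 for *Cryba4* and -1.54 for *Crybb3*. *Crybb1* passed the test in each line with opposite signs, under every alternative run. *Cryba4* passed in each line with opposite signs in the main fit only. Its call in the *Carm1* line (edgeR adjusted p = 0.0498) was lost with DESeq2 (adjusted p = 0.154) and under most other alternatives. Its call in the *Pax3* line was lost with length and GC offsets (edgeR adjusted p = 0.27) and without null replicate 3 (edgeR adjusted p = 0.358). Leaving out any single *Pax3* wild-type library also lost it, and DESeq2 gave no adjusted p there. *Crybb3* passed in the *Pax3* line. In the *Carm1* line it passed with DESeq2 (adjusted p = 0.0465) but not in the main edgeR fit (adjusted p = 0.0741). There edgeR called it with no filter on low counts, and without null replicate 2 or wild-type replicate 2. In the *Pax3* line, short transcripts as a class were higher in null embryos, and with length and GC offsets the 3 differences were -1.44, -1.39 and -1.15. Line and strain cannot be told apart.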

How the results depend on the processing

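The count of crystallins called in the *Carm1* line went from 2 to 1 (*Crybb1*) with RLE or upper-quartile scaling, the replicate block, the Y-linked term and all 12 libraries in 1 fit, and ranged from 1 to 2 with single libraries left out. It was 3 with no filter on low counts (*Crybb3* added) and 2 with DESeq2 (*Crybb1* and *Crybb3*, not *Cryba4*). In the *Pax3* line it went from 7 to 4 with DESeq2, which gave no adjusted p for *Cryba2*, *Cryba4* and *Crygn* (log2 fold changes 0.95, 0.93 and 0.95), to 5 with all 12 libraries in 1 fit (without *Cryaa* and *Cryba1*) and to 2 with length and GC offsets, and ranged from 3 to 7 with single libraries left out; the cause of the other changes was not tested. The difference between lines kept 3 or 4 calls throughout. Directions turned for uncalled values: in the *Carm1* line *Crygn* was 0.010 with DESeq2 and 0.018 with the replicate block and ranged from -0.23 to 0.22 with single libraries left out, *Cryba1* ranged from -0.58 to 0.049 and *Cryba2* from -0.66 to 0.0056; the *Cryab* difference between lines was 0.138 with length and GC offsets. Same-numbered embryos did not deviate together in every pair (r of -0.038, -0.0052 and -0.026 in the *Carm1* line and 0.13, -0.066 and 0.20 in the *Pax3* line). With 3 embryos per group these values cannot show whether the replicate numbers pair embryos, and the labels do not say. Under the block 1, 7 and 4 crystallins were called in the *Carm1* line, the *Pax3* line and the difference. Across all genes, calls in the *Carm1* line went from 2106 to 3263 with the offsets and in the *Pax3* line from 3851 to 2434, and with single libraries left out they ranged from 1224 to 2290 and from 2454 to 4103. No scaling moved the median of all genes by 0.1. Low counts, 52 to 136 per group of 3 libraries, limit *Cryba2*, *Cryba4* and *Crygn*, and *Crygs* and *Crybb2* were below what this depth can compare.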

Other observations

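Eye tissues around the lens were counted in the same way. Over all tested genes, 5.49% rose and 7.83% fell in the *Carm1* line, and 14.0% rose and 10.5% fell in the *Pax3* line. Single calls in lists this short are not read as a result about the list. Of 13 tested neural retina and optic cup genes, 1 rose (*Otx2*) and 2 fell (*Sfrp2*, *Stmn2*) in *Carm1* null embryos, and 0 rose and 3 fell in *Pax3* null embryos (*Isl1*, *Stmn2*, *Pou4f2*). Of pigment and retinal pigment epithelium genes, 1 of 8 fell in the *Carm1* line (*Ttr*, also a gene of liver and yolk sac) and 0 of 9 were called in the *Pax3* line. Surface ectoderm genes showed 3 falls of 9 in the *Carm1* line (*Krt5*, *Krt14*, *Tfap2b*) and 1 of 9 in the *Pax3* line (*Tfap2b*). The counts for the *Carm1* line without null replicate 1, a setting chosen after seeing the data, were 0 rises and 2 falls for retina, 1 fall for pigment and 3 falls for ectoderm. In that setting 2.93% of all tested genes rose and 4.71% fell.

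Of 5 tested crystallin relatives with enzymatic or other roles, 1 rose in the *Carm1* line (*Cryz*) and in the *Pax3* line 1 rose (*Crym*) and 1 fell (*Crybg3*), with median log2 fold changes of 0.095 in the *Carm1* line and 0.12 in the *Pax3* line. Of 13 heat shock factors and chaperones, 1 rose in the *Carm1* line (*Hspa1b*), and in the *Pax3* line 2 rose and 5 fell. The shares over all tested genes were 5.49% higher and 7.83% lower in the *Carm1* line, and 14.0% higher and 10.5% lower in the *Pax3* line. *Hspe1*, the mitochondrial co-chaperonin, measured 90.7, 99.0 and 120 CPM in *Pax3* wild type and 180, 179 and 176 CPM in null embryos (log2 fold change 0.79). *Hspd1*, of the same list, went the other way, from a mean of 506 CPM in *Pax3* wild type to 448 CPM in null embryos. These values take no account of transcript length, and short transcripts as a class were higher in that line.

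The 5 genes whose deviations from the group means were most like the mean of 7 crystallins over 12 libraries, of 14837 candidates, were *Dip2c* (r = 0.93), *Scara5* (0.93), *Clec2l* (0.93), *Fgf9* (0.91) and *Cryga* (0.91). Without *Carm1* null replicate 1 these values were 0.82, 0.90, 0.77, 0.56 and 0.22. The genes then ranked 84, 12, 171, 1057 and 4703 among the candidates, so none stayed among the top 5. *Fgf9* and *Cryga* fell most. Because the 5 were picked as the highest of all candidates, their values are no test of likeness. Among the members, *Cryaa* correlated with the mean of the others at 0.94 with that library and 0.65 without it, and *Crybb1* at 0.75 and -0.089. *Cryba4* moved little, from 0.41 to 0.39, and *Cryab* went from 0.088 to 0.42. These are descriptions over libraries that share their scaling.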
